A study of Homo sapiens with 9 samples.

Results

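The mRNAs of 10 amino acid transporters were followed in MDA-MB-231 cells, an established human triple-negative breast cancer line. The genes were chosen by name, as SLC3A2, SLC7A11, SLC7A5, SLC7A1, SLC1A5, SLC1A4, SLC38A1, SLC38A2, SLC6A9 and SLC43A1, from 27615 genes listed for at least 1 library. They, and the gene lists used below, were chosen with earlier results of these data known. Counts and medians set beside those of all genes are therefore descriptions and not support. Cells received vehicle (DMSO), rimonabant (named SR in the sample labels) or TXX-1-10 (named TXX), with 3 sequenced libraries each and 9 in all. Rimonabant blocks the cannabinoid receptor CB1. TXX-1-10 is a derivative with a quaternary ammonium group at a position of the pyrazole ring. Doses and treatment times for the RNA-seq cultures are not given in the sources used here, so equal dosing of the compounds is not known. The study's methods state in general that in vitro experiments were repeated but do not tie the replicate libraries to separate cultures, so the p-values measure only the spread between these libraries, which may be technical.

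Amino acids cross the plasma membrane on transporters of several families. The heteromeric transporters pair a heavy chain, SLC3A2 (4F2hc, CD98), with a light chain that carries the substrate. With SLC7A11 (xCT) the pair imports cystine in exchange for glutamate and feeds glutathione synthesis, and with SLC7A5 (LAT1) it imports leucine and other large neutral amino acids. SLC7A1 (CAT1) carries arginine and lysine. SLC1A5 (ASCT2) exchanges glutamine, serine and other neutral amino acids, and SLC1A4 (ASCT1) exchanges serine, alanine and threonine. SLC38A1 (SNAT1) and SLC38A2 (SNAT2) take up glutamine and alanine with sodium. SLC6A9 (GlyT1) takes up glycine, and SLC43A1 (LAT3) carries branched-chain amino acids by facilitated diffusion. When amino acids run short, the kinase GCN2 (EIF2AK4) raises translation of the transcription factor ATF4, which binds amino acid response elements in the promoters of many transporter genes.

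Levels are FPKM values, that is, counts per length of gene and per library total, and differences are log2 fold changes from edgeR's quasi-likelihood test on the counts. A gene is said to have risen or fallen where its Benjamini-Hochberg adjusted p was under 0.05, and to have passed the study threshold where its absolute log2 fold change was also at least 1. The library totals behind the FPKM values were 17078370 to 19277808, and which reads they hold is not given. The listed counts summed to more than this total in vehicle replicates 1 (17492638 against 17078370) and 3 (17383157 against 17221591). In every other library they summed to less, so small differences from vehicle depend on the choice of library size. The gene lists are ordered from abundant to scarce genes and end at different points, so a gene missing from a list is not at 0. SLC1A4 and SLC6A9 are missing from the lists of vehicle replicate 2 and rimonabant replicate 1 and were tested in the other 7 libraries, SLC43A1 is missing from rimonabant replicate 1 and was tested in 8, and the other 7 genes were tested in all 9. In rimonabant replicate 1 and TXX-1-10 replicate 3, longer genes had relatively fewer counts than in the rest of the group (Spearman rho of this deviation with length -0.69 over genes in each). The line's markers VIM, CD44, AXL, MSN and EGFR had 5040 to 31197 counts in every library, ESR1, PGR and CDH1 had 0 to 13 in the 4 libraries that list them, EPCAM had 208 to 246, and of the genes of other cell types PTPRC had 1 to 10, PECAM1 8 to 23 and COL1A1 56 to 135 where listed.

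In vehicle-treated cells the transporters spanned a wide range of FPKM, in the order SLC7A5, SLC38A2, SLC38A1, SLC1A5, SLC3A2, SLC7A1, SLC7A11, SLC43A1, SLC6A9 and SLC1A4. SLC7A5 stood highest at 92.4 ± 3.27 (SD, n = 3), and SLC1A4 lowest at 0.498 and 0.393 in the 2 libraries that list it. No neighbours in this order overlapped between libraries. Under rimonabant SLC1A5, SLC7A5, SLC3A2, SLC38A1 and SLC38A2 came together between 65.9 and 98.2 FPKM, and each of them overlapped its neighbour in the order. Under TXX-1-10 SLC3A2 moved from rank 5 to rank 1 with 168 ± 11.8 (SD, n = 3), followed by SLC38A1 with 128 ± 10.5, and only SLC38A2 and SLC1A5 overlapped as neighbours. Summed over the 7 genes listed in every library, the level was 388 ± 1.06 FPKM in the vehicle libraries, 454 ± 5.33 with rimonabant and 642 ± 2.85 with TXX-1-10 (SD, n = 3). In these bulk libraries a different share of expressing cells and a different amount of mRNA per cell cannot be told apart. SLC3A2 alone made up 49.4% of the difference of 253 FPKM between TXX-1-10 and vehicle.

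**Figure D1:**
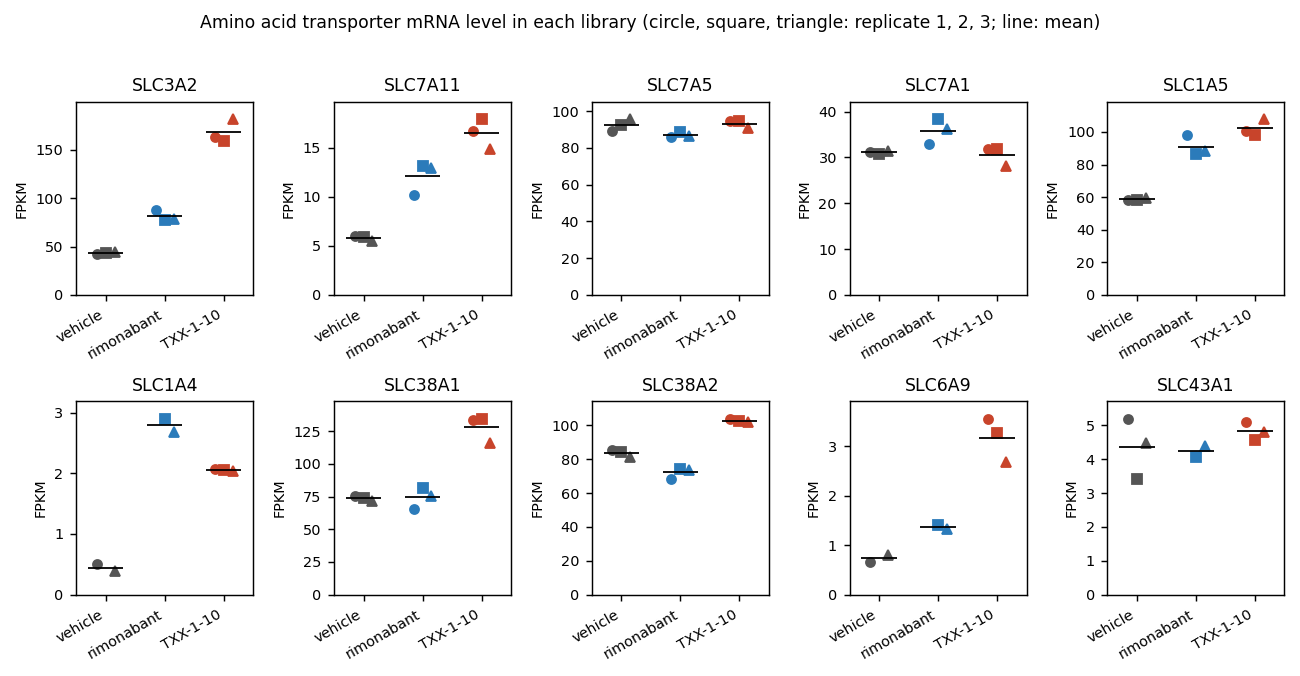
FPKM of each transporter in each library (y axis, from 0) by treatment (x axis), with the mean as a line; replicates 1, 2 and 3 are circles, squares and triangles, and a gene not listed for a library has no point. SLC3A2 rises from 43.2 to 81.3 and 168, SLC7A5 stays between 85.7 and 95.6, and SLC1A4 is highest under rimonabant.

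Whether each compound moved these genes, and whether the compounds differed, was asked against vehicle and between the compounds. TXX-1-10 raised 7 of the 10 genes and lowered 0. Of the 7 genes tested in 9 libraries 5 rose, where 30.5% of all 4236 tested genes rose and 43.8% fell (34.7% and 40.6% in the 8-library fit, 32.3% and 36.1% in the 7-library fit), and their median log2 fold change was 0.80 against -0.09 over all tested genes. Past the study threshold were SLC3A2 and SLC7A11, where 4.2% of all tested genes passed it upwards, and SLC1A4 and SLC6A9 in the 7-library fit, where 6.31% did. SLC1A4 and SLC6A9 reached the minimum mean of 1 FPKM through the treated libraries, so their calls are not counted as support, although the values were the same without a minimum.

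Rimonabant raised 6 of the 10 genes and lowered SLC38A2. In the 9-library fit 4 of the 7 rose, beside 23.7% of all tested genes that rose and 25.2% that fell (23.7% and 22.8% in the 8-library fit, 18.1% and 16.9% in the 7-library fit), with a median log2 fold change of 0.20 against -0.02. SLC7A11 passed the study threshold, which 0.519% of all tested genes passed upwards, and SLC1A4 passed it in the 7-library fit, where 1.08% did. Directly compared, TXX-1-10 stood above rimonabant for 6 of the 10 genes and below it for SLC7A1 and SLC1A4. Of the 7 genes in the 9-library fit 5 were higher and 1 lower, beside 25.1% and 39.4% of all tested genes (25.2% and 30.1% in the 7-library fit), and the median was 0.45 against -0.08. SLC3A2, in the 9-library fit where 1.58% of genes passed upwards, and SLC6A9, in the 7-library fit where 2.61% did, passed the study threshold between the compounds. Here too SLC1A4 and SLC6A9 had reached the minimum mean FPKM through the treated libraries. Their calls under rimonabant and between the compounds are therefore not counted as support. The comparisons of the compounds with vehicle share the vehicle libraries, so their values are given side by side and are not independent.

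As a description of the rest of the family, 58 other genes with a symbol starting in SLC were tested in 9 libraries. Under TXX-1-10 25 of them rose and 24 fell, beside 30.5% and 43.8% of all tested genes. Their median log2 fold change was 0.03 (range -1.73 to 2.93), and 4 passed the study threshold upwards and 6 downwards, beside 4.2% and 7.6%. Under rimonabant 21 rose and 18 fell, beside 23.7% and 25.2%, with a median of 0.03. None of them passed the study threshold, which 22 of all 4236 tested genes passed upwards and 26 downwards. Between the compounds 18 were higher under TXX-1-10 and 24 lower, beside 25.1% and 39.4%. Without rimonabant replicate 1 and TXX-1-10 replicate 3, the counts over the 10 transporters were 7 risen and 0 fallen under TXX-1-10, 7 risen and 1 fallen under rimonabant, and 7 higher and 2 lower between the compounds. Of the 4236 genes listed in all libraries, 1456 then rose and 2135 fell under TXX-1-10, and 1299 and 1608 under rimonabant. Between the compounds 1289 of them were higher and 1938 lower.

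**Figure D2:**
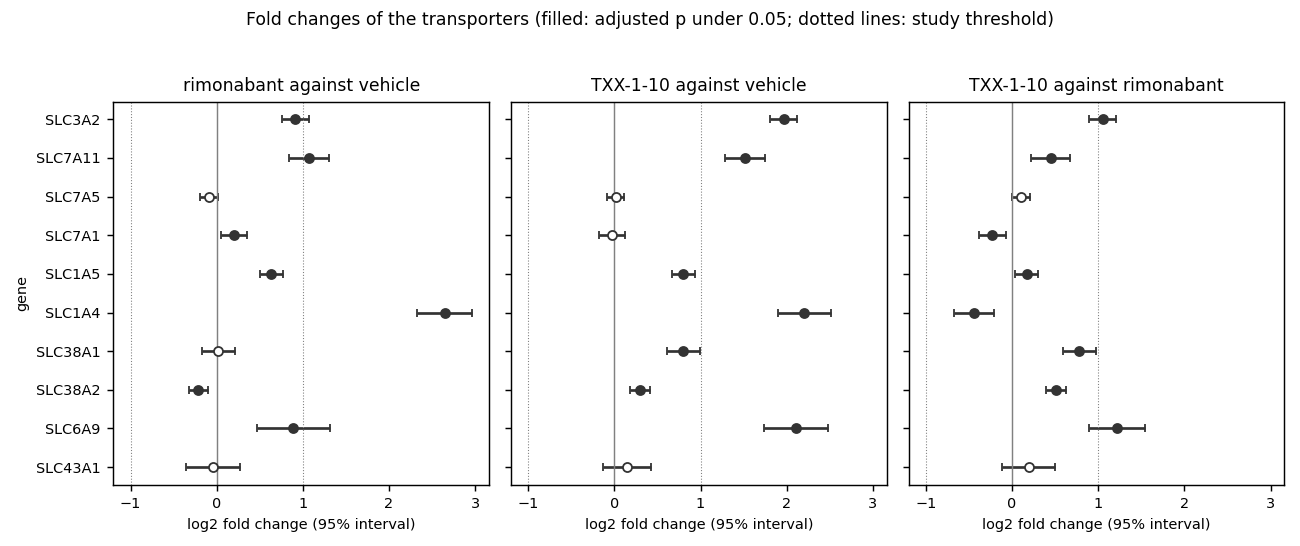
Log2 fold change (x axis) of each transporter (y axis) with its 95% interval, for rimonabant against vehicle, TXX-1-10 against vehicle and TXX-1-10 against rimonabant; filled points have an adjusted p under 0.05 and dotted lines mark the study threshold. SLC3A2, SLC7A11, SLC1A4 and SLC6A9 lie beyond 1 under TXX-1-10, while SLC7A5, SLC7A1 and SLC43A1 lie at 0.01, -0.03 and 0.15.

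Promoter windows of 250 bases before to 50 after each annotated start were read from RefSeq (GRCh38.p14), which gave 16 windows for 9 of the 10 genes. SLC7A11 had no window, so its promoter was not searched. They were searched on both strands for TGATGNAA, the core of the element bound by ATF4 with its C/EBP partners, and for TGACNNNGC, the core of the antioxidant response element bound by NRF2 (NFE2L2). The first was present in 3.62% of all 35116 windows of the table and in 5 windows of these genes, those of SLC3A2, SLC1A5, SLC1A4, SLC38A1 and SLC7A1. The second was present in 13.3% of all windows and in 4 of these genes' windows, those of SLC3A2, SLC7A5, SLC7A1 and another start of SLC1A5. The window of SLC7A1, which did not pass under TXX-1-10, holds both, and those of SLC38A2 and SLC6A9, which rose under it, hold neither. Neither is present in the windows of further starts of SLC3A2, SLC1A5, SLC1A4 and SLC38A1. For SLC3A2, SLC1A5 and SLC1A4 these empty windows include the one that covers the gene's outer annotated start. The matches of these genes lie at starts further inside the gene. These matches describe letters, not bound sites, and no binding was measured. Windows of 3 genes that rose are shown, in the direction of the gene and with the matches in capitals. That of SLC3A2 (chr11:62881449-62881748, plus strand) holds both cores. In that of SLC1A4 (chr2:64989149-64989448, plus strand) the first core is on the opposite strand and begins 7 bases before the start. In that of SLC38A1 (chr12:46266467-46266766, minus strand) it begins 4 bases before the start. Read in the direction of the gene, the matches of SLC1A4 and SLC38A1 reach or cross the start.
SLC3A2: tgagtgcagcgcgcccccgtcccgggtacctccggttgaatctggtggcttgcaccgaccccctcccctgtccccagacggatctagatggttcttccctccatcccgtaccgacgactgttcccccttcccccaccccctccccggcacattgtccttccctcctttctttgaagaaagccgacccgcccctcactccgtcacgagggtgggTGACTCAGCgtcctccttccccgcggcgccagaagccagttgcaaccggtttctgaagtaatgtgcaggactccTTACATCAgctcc
SLC1A4: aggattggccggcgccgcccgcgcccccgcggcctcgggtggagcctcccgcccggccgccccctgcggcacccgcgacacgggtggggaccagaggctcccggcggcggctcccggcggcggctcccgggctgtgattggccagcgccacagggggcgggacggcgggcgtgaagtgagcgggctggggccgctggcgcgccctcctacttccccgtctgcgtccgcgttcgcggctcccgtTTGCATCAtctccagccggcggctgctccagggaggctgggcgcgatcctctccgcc
SLC38A1: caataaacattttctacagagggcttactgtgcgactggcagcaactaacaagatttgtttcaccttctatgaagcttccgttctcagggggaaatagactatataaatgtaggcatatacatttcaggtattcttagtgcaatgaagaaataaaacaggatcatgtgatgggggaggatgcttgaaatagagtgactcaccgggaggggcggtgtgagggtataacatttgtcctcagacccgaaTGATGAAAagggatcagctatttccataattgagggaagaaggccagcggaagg
The window of SLC7A5 (chr16:87869458-87869757, minus strand), which gave no call in the edgeR fit, is shown beside them. It holds the antioxidant core, which begins 2 bases before its start and crosses it, and not the first core.
SLC7A5: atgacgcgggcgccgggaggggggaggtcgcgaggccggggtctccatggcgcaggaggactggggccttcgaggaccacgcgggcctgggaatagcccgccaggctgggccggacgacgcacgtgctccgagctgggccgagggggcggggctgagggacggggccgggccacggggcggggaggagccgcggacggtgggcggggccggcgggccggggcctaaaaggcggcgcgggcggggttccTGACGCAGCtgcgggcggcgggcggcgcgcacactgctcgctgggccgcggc

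SLC3A2, the shared heavy chain (ENSG00000168003, chromosome 11, 62856102 to 62888875, plus strand, GRCh38), gave the largest log2 fold change of the 7 genes tested in 9 libraries under TXX-1-10, and the second largest, after SLC7A11, under rimonabant. Its FPKM was 42.1, 43.2 and 44.2 in vehicle replicates 1, 2 and 3, 88.3, 77.3 and 78.2 with rimonabant, and 164, 159 and 182 with TXX-1-10. The 3 groups did not overlap, and each step up was larger than the spread within groups. Against vehicle the log2 fold change was 1.96 under TXX-1-10 (SE 0.07, edgeR adjusted p = 4.51e-09), a 3.90-fold difference. Under rimonabant it was 0.91 (SE 0.07, edgeR adjusted p = 8.10e-06). TXX-1-10 stood above rimonabant by 1.05 (SE 0.07, edgeR adjusted p = 6.17e-07), and by 0.99, just under the study threshold, without TXX-1-10 replicate 3. In the fit without rimonabant replicate 1 and TXX-1-10 replicate 3 the values were 1.90, 0.85 and 1.06.

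SLC7A11 (ENSG00000151012, chromosome 4, 138164097 to 138242349, minus strand), the cystine-carrying light chain, rose under both compounds. Its FPKM was 5.99, 5.86 and 5.47 in the vehicle libraries, 10.2, 13.2 and 12.9 with rimonabant and 16.7, 17.9 and 14.9 with TXX-1-10. Every TXX-1-10 library stood above every rimonabant library, and those above every vehicle library. On the log2 scale the change was 1.52 under TXX-1-10 (SE 0.10, edgeR adjusted p = 4.36e-07) and 1.07 under rimonabant (SE 0.10, edgeR adjusted p = 3.34e-05). Between the compounds it was 0.45 (SE 0.10, edgeR adjusted p = 0.00281). Of its 9645 annotated exon bases 865 are shared with SLC7A11-AS1 on the opposite strand, and the sources used here do not say whether counting was strand-specific, so their reads cannot be told apart there.

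SLC7A5 (ENSG00000103257, chromosome 16, 87830023 to 87869488, minus strand), the light chain for large neutral amino acids, gave no call in the 9-library edgeR fit. Its FPKM was 89.1, 92.4 and 95.6 in the vehicle libraries, 85.7, 88.6 and 86.5 with rimonabant and 94.5, 94.5 and 90.8 with TXX-1-10. Vehicle and TXX-1-10 libraries overlapped, while the rimonabant libraries all lay below both. Its log2 fold change was 0.01 under TXX-1-10 (95% interval -0.09 to 0.12, edgeR adjusted p = 0.802) and -0.09 under rimonabant (95% interval -0.19 to 0.02, edgeR adjusted p = 0.145). The difference of 0.10 between the compounds had a 95% interval of -0.0026 to 0.20 (edgeR adjusted p = 0.0806). It passed in 7 of 23 alternatives, among them TMM scaling (0.19), the length correction (0.20) and the fit without rimonabant replicate 1 and TXX-1-10 replicate 3 (0.11). The value under TXX-1-10 was -0.01 without vehicle replicate 1, and it passed upwards in 2 alternatives, at 0.19 with the sum of shared counts as library size (edgeR adjusted p = 0.00915) and at 0.11 with DESeq2 (adjusted p = 0.0225). SLC7A5 shares 271 of its 4745 exon bases with an antisense gene, AC126696.2.

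Since the heavy chain rose and 1 of its light chains did not, their levels were set against each other within each library. The ratio of SLC3A2 to the sum of SLC7A5 and SLC7A11 was 0.440 ± 0.00248 in the vehicle libraries, 0.822 ± 0.0862 with rimonabant and 1.54 ± 0.161 with TXX-1-10 (SD, n = 3). Libraries of the 3 groups did not overlap, with ranges of 0.437 to 0.442, 0.760 to 0.921 and 1.42 to 1.72. The highest value of each treated group was in rimonabant replicate 1 and TXX-1-10 replicate 3, and the other 2 libraries of each group, at 0.760 and 0.786 with rimonabant and 1.47 and 1.42 with TXX-1-10, did not overlap either. With the further light chains SLC7A6, SLC7A7 and SLC7A8 added to the sum where a library lists them, the ratios were 0.408, 0.792 and 1.47. A light chain missing from a list adds nothing to that library's sum, so these means mix unlike sums. Rimonabant replicate 1 lists none of the further light chains and stays at 0.921, while rimonabant replicates 2 and 3 were at 0.716 and 0.739. SLC7A11 made up 5.89% ± 0.449 of the FPKM of both light chains in the vehicle libraries, 12.2% ± 1.37 with rimonabant and 15% ± 0.914 with TXX-1-10 (SD, n = 3), so SLC7A5 remained the larger part. These are ratios of mRNA, not of protein.

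**Figure D3:**
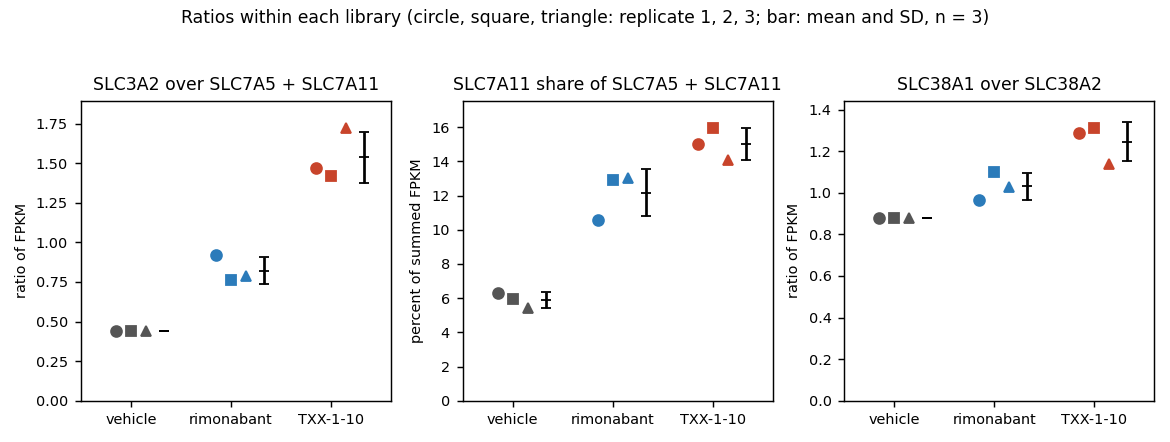
Ratios within each library (y axes, from 0) by treatment (x axis), with the mean and SD of 3 libraries beside the points: SLC3A2 over SLC7A5 plus SLC7A11, the percent of SLC7A11 in the FPKM of SLC7A5 plus SLC7A11, and SLC38A1 over SLC38A2. The heavy chain ratio moves from 0.440 to 0.822 and 1.54, and in all 3 panels the vehicle libraries are the lowest.

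SLC7A1, the carrier of cationic amino acids (ENSG00000139514, chromosome 13, 29509410 to 29595688, minus strand), moved little. Its FPKM was 31.2, 30.9 and 31.5 in the vehicle libraries, 32.9, 38.4 and 36.2 with rimonabant and 31.9, 31.9 and 28.0 with TXX-1-10. Rimonabant libraries lay above all others, while vehicle and TXX-1-10 libraries overlapped. Under rimonabant the log2 fold change was 0.20 (SE 0.07, edgeR adjusted p = 0.0347), and that under TXX-1-10 was -0.03 (95% interval -0.18 to 0.13, edgeR adjusted p = 0.737), which turned to 0.07 under TMM scaling without passing. TXX-1-10 stood below rimonabant by 0.23 (log2 fold change -0.23, SE 0.07, edgeR adjusted p = 0.0148). The rise under rimonabant did not pass without vehicle replicate 1, 2 or 3 or rimonabant replicate 2 or 3 (edgeR adjusted p = 0.0756 to 0.117), nor with the replicate number as a block (edgeR adjusted p = 0.0540), and the difference between the compounds did not pass without rimonabant replicate 2 (-0.17) or under TMM, DESeq2 or shared-count scaling (-0.14 to -0.13).

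Both exchangers of small neutral amino acids rose under both compounds, from very different levels. SLC1A5, the glutamine exchanger (ENSG00000105281, chromosome 19, 46774883 to 46788594, minus strand), had an FPKM of 58.4, 58.2 and 59.5 in the vehicle libraries, 98.2, 86.2 and 88.3 with rimonabant and 101, 98.4 and 108 with TXX-1-10. All treated libraries lay above the vehicle libraries, and the lowest TXX-1-10 library lay just above the highest rimonabant library. The log2 fold change was 0.80 under TXX-1-10 (SE 0.06, edgeR adjusted p = 7.74e-07) and 0.63 under rimonabant (SE 0.06, edgeR adjusted p = 2.77e-05). Between the compounds it was 0.17 (SE 0.06, edgeR adjusted p = 0.0274), which did not pass without rimonabant replicate 2 or 3 or TXX-1-10 replicate 1 or 3 (0.13 to 0.18, edgeR adjusted p = 0.0509 to 0.0960), nor in a fit of these groups alone (edgeR adjusted p = 0.0706). The antisense gene AC008622.2 shares 780 of the 3332 exon bases of SLC1A5.

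SLC1A4, the relative that carries serine, alanine and threonine (ENSG00000115902, chromosome 2, 64988477 to 65023865, plus strand), was scarce, and was the transporter raised most by rimonabant. Its FPKM was 0.498 and 0.393 in vehicle replicates 1 and 3 (59 and 47 counts), 2.90 and 2.68 in rimonabant replicates 2 and 3 (378 and 345 counts), and 2.07, 2.05 and 2.04 under TXX-1-10 (261 to 277 counts). The groups did not overlap, and the rimonabant libraries were the highest. Under rimonabant the log2 fold change was 2.64 (SE 0.14, 7 libraries, edgeR adjusted p = 8.27e-07), and under TXX-1-10 it was 2.20 (SE 0.14, edgeR adjusted p = 1.01e-07). TXX-1-10 stood below rimonabant at -0.44 (SE 0.11, edgeR adjusted p = 0.00424). Without rimonabant replicate 2, which leaves 1 rimonabant library that is assumed to vary like the other groups, the difference was -0.38 and did not pass (edgeR adjusted p = 0.0553).

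The sodium-coupled transporters of glutamine and alanine lie near each other on chromosome 12 and gave different values by compound. SLC38A1 (ENSG00000111371, 46183063 to 46270017, minus strand) had an FPKM of 75.2, 74.3 and 71.3 in the vehicle libraries, 65.9, 81.6 and 75.8 with rimonabant and 134, 134 and 116 with TXX-1-10. Rimonabant libraries spread on both sides of the vehicle libraries, and all TXX-1-10 libraries lay above. The log2 fold change was 0.80 under TXX-1-10 (SE 0.09, edgeR adjusted p = 1.26e-05) and 0.02 under rimonabant (95% interval -0.17 to 0.21, edgeR adjusted p = 0.885). The difference between the compounds was 0.78 (SE 0.09, edgeR adjusted p = 2.49e-05). Without rimonabant replicate 1 and TXX-1-10 replicate 3 the rimonabant value was 0.10 and passed (edgeR adjusted p = 0.0289), and without rimonabant replicate 2 it was -0.05.

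SLC38A2 (ENSG00000134294, 46358189 to 46372867, minus strand) moved in opposite directions. Its FPKM was 85.4, 84.5 and 81.2 in the vehicle libraries, 68.2, 74.4 and 73.9 with rimonabant and 104, 103 and 102 with TXX-1-10. The groups did not overlap, with rimonabant lowest and TXX-1-10 highest. The log2 fold change was -0.21 under rimonabant (SE 0.05, edgeR adjusted p = 0.00568) and 0.30 under TXX-1-10 (SE 0.05, edgeR adjusted p = 0.000344), and the compounds differed by 0.51 (SE 0.05, edgeR adjusted p = 1.11e-05). With the sum of shared counts as library size, the fall under rimonabant was -0.14 and did not pass (edgeR adjusted p = 0.0569). The ratio of SLC38A1 to SLC38A2 was 0.879 ± 0.00132 in the vehicle libraries, 1.03 ± 0.0662 with rimonabant and 1.24 ± 0.0942 with TXX-1-10 (SD, n = 3).

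SLC6A9, the glycine transporter (ENSG00000196517, chromosome 1, 43991500 to 44031467, minus strand), rose under both compounds and more under TXX-1-10. Its FPKM was 0.658 and 0.810 in vehicle replicates 1 and 3 (58 and 72 counts), 1.40 and 1.32 in rimonabant replicates 2 and 3 (136 and 126 counts), and 3.55, 3.27 and 2.68 under TXX-1-10 (254 to 353 counts). The groups did not overlap. The rise was 2.11 on the log2 scale under TXX-1-10 (SE 0.17, 7 libraries, edgeR adjusted p = 5.96e-07) and 0.89 under rimonabant (SE 0.19, edgeR adjusted p = 0.00471). The difference between the compounds was 1.22 (SE 0.15, edgeR adjusted p = 3.99e-05). Without vehicle replicate 1, which leaves 1 vehicle library, the rimonabant value was 0.75 and did not pass (edgeR adjusted p = 0.0577). SLC6A9 shares 404 of its 5159 exon bases with CCDC24 on the opposite strand.

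SLC43A1, the facilitated carrier of branched-chain amino acids (ENSG00000149150, chromosome 11, 57484534 to 57515786, minus strand), gave no call. Its FPKM was 5.19, 3.41 and 4.47 in vehicle-treated cells, 4.08 and 4.39 in rimonabant replicates 2 and 3, and 5.11, 4.57 and 4.81 under TXX-1-10. The vehicle libraries spread wider than the treated ones and overlapped both groups. Its log2 fold change was 0.15 under TXX-1-10 (95% interval -0.13 to 0.43, 8 libraries, edgeR adjusted p = 0.304) and -0.04 under rimonabant (95% interval -0.36 to 0.27, edgeR adjusted p = 0.829). The latter changed sign with the replicate block (0.06) and without vehicle replicate 1 (0.10). The value under TXX-1-10 was 0.29 without vehicle replicate 1 (edgeR adjusted p = 0.0551) and 0.0012 without vehicle replicate 2 (edgeR adjusted p = 0.992).

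Gene length moved with these values within the treated groups. In rimonabant replicate 1, SLC38A1 and SLC7A11, the longest of the 7 genes listed everywhere, were below the mean of the other rimonabant libraries by 0.26 and 0.36 on the log2 scale (-0.26 and -0.36), while SLC1A5, the shortest, was above it by 0.17. In TXX-1-10 replicate 3 SLC38A1 and SLC7A11 were both at -0.21 and SLC1A5 at 0.12. Over the 7 genes, Spearman's rho of this deviation with length was -0.86 in rimonabant replicate 1 and -0.79 in TXX-1-10 replicate 3. Without both libraries SLC7A11 stood at 1.58 under TXX-1-10 and 1.18 under rimonabant, SLC38A1 at 0.87 under TXX-1-10 and SLC1A5 at 0.76 and 0.57. With a correction for the trend of counts on length in each library, SLC7A11 was at 1.59 under TXX-1-10 and 1.12 under rimonabant, SLC3A2 at 2.03 and 0.90, SLC1A5 at 0.91 and 0.61 and SLC38A1 at 0.87 and 0.07. Of the 30 comparisons of the transporters, this correction changed the call of 1, SLC7A5 between the compounds, and turned the sign of SLC7A1 under TXX-1-10 to 0.04, which did not pass.

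As a description, the genes outside the lists used here whose log2 FPKM over the 9 libraries was most like that of SLC7A11 were NORAD, NIPA1, KDM3A, SHOX2 and CYBRD1 (Pearson r 0.991 to 0.997). For SLC7A5 they were HELZ2, HIP1R, LAMA5, CPSF1 and FASN (Pearson r 0.920 to 0.956). The points share 3 treatments and their libraries, so these values name patterns and nothing further.

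Few other transporters of the plasma membrane could be tested. Of 19 further amino acid transporter genes, 15 were missing from too many lists or too low to test. Of the 4 tested, SLC6A6, the taurine transporter, rose by 0.88 on the log2 scale under TXX-1-10 (edgeR adjusted p = 9.16e-05), and SLC7A6, SLC7A2 and SLC38A4 fell. SLC7A2, which like SLC7A1 carries cationic amino acids, was at 17.3 ± 0.851 FPKM in the vehicle libraries, 13.3 ± 1.28 with rimonabant and 5.2 ± 0.439 with TXX-1-10 (SD, n = 3). Its log2 fold change was -1.73 under TXX-1-10 (edgeR adjusted p = 3.76e-08), where 7.6% of all genes in the 9-library fit passed the study threshold downwards, and -0.37 under rimonabant (edgeR adjusted p = 0.00393). SLC38A4, a sodium-coupled relative of SLC38A1 and SLC38A2, was at 5.34 and 5.13 FPKM in the 2 vehicle libraries that list it, 2.26 and 1.72 in 2 rimonabant libraries and 0.30, 0.446 and 0.210 under TXX-1-10 (16 to 34 counts). Its log2 fold change was -4.03 under TXX-1-10 (SE 0.21, edgeR adjusted p = 1.76e-08), where 7.68% of the 7-library fit passed downwards, and -1.40 under rimonabant (SE 0.18, edgeR adjusted p = 0.000234). It reached the minimum mean of 1 FPKM through the vehicle and rimonabant libraries, so its call is a description and is not read against that share.

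Of 8 amino acid transporter genes of the lysosome, 7 were tested and all 7 rose under both compounds. Of these, 5 were in the 8-library fit, where 34.7% of all genes rose under TXX-1-10 and 23.7% under rimonabant. The other 2, SLC36A4 and MFSD12, were in the 9-library fit, where 30.5% rose under TXX-1-10 and 23.7% under rimonabant. The median log2 fold change of the tested genes was 0.54 under TXX-1-10 and 0.33 under rimonabant, where all genes of the 8-library fit had medians of -0.04 and 0.00. Past the study threshold under TXX-1-10, as 5.28% of the 8-library fit was upwards, were PQLC2, which exports cationic amino acids (1.17, edgeR adjusted p = 3.13e-08), and SLC38A7, a glutamine and asparagine carrier (1.17, edgeR adjusted p = 8.21e-09). The mitochondrial carriers were mixed. Of 9 tested, 4 rose and 4 fell under TXX-1-10 (3 and 3 of the 6 in the 8-library fit, where 34.7% of all genes rose and 40.6% fell), with a median log2 fold change of -0.09. Under rimonabant 4 rose and 2 fell (3 and 2 in the 8-library fit, beside 23.7% and 22.8%), with a median of 0.01. SLC25A15, the ornithine carrier, fell past the study threshold under TXX-1-10 from 12.0 ± 0.476 to 5.34 ± 0.492 FPKM (SD, n = 3), a log2 fold change of -1.17 (edgeR adjusted p = 6.60e-07), as 7.39% of the 8-library fit did, and was at -0.70 under rimonabant (edgeR adjusted p = 0.000478).

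A list of genes of cysteine supply, glutathione and related redox enzymes had 9 tested genes. Under TXX-1-10 8 rose and GSS, glutathione synthetase, fell, that is, 5 risen and 1 fallen of 6 in the 9-library fit (30.5% and 43.8% of all genes) and 3 risen of 3 in the 8-library fit (34.7%). Under rimonabant 7 rose and 0 fell, 4 of 6 in the 9-library fit and 3 of 3 in the 8-library fit, beside 23.7% of all genes in each. Medians were 1.08 and 0.75, where those over all genes were -0.09 and -0.02 in the 9-library fit and -0.04 and 0.00 in the 8-library fit. CHAC1, which degrades glutathione, went from 1.65 ± 0.234 FPKM in vehicle-treated cells to 12.6 ± 0.583 under TXX-1-10 (SD, n = 3) and to 7.57 and 8.34 in 2 rimonabant libraries. Its log2 fold change was 2.93 under TXX-1-10 (edgeR adjusted p = 2.57e-10) and 2.27 under rimonabant (edgeR adjusted p = 1.27e-07). CTH, which makes cysteine from cystathionine, rose by 2.64 and 1.30, GLRX, a glutathione-dependent oxidoreductase, by 1.61 and 0.80, and GCLC, the catalytic subunit of the first enzyme of glutathione synthesis, by 1.41 and 0.68 on the log2 scale under TXX-1-10 and rimonabant.

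A list of the kinase complex mTORC1 and of amino acid and related signals to it had 20 tested genes. Under TXX-1-10 13 rose and 2, RPTOR and NPRL3, fell, and under rimonabant 8 rose and 2, DDIT4 and NPRL3, fell. Their medians were 0.31 and 0.13. Those that fell are named after their values were seen. The list holds parts of the complex, such as MTOR and RPTOR, and both activators and inhibitors of the signal to it. Its counts therefore give no direction of that signal. In the 9-library fit 5 of 10 rose and 1 fell under TXX-1-10, beside 30.5% and 43.8% of all genes. Under rimonabant 2 rose and 1 fell there, beside 23.7% and 25.2%. In the 8-library fit 7 of 9 rose and 1 fell under TXX-1-10 (34.7% and 40.6%), and 5 and 1 under rimonabant (23.7% and 22.8%). SESN3, at 0.692 to 0.886 FPKM in the vehicle libraries, and SESN1, at 1.06 and 0.873, reached the minimum mean of 1 FPKM through the treated libraries. Both are among the risen genes counted here, and their calls are not read against these shares. SESN2, a leucine-binding inhibitor of this signal, went from 2.87 ± 0.107 FPKM to 23.0 ± 0.306 under TXX-1-10 (SD, n = 3), a log2 fold change of 3.01 (edgeR adjusted p = 6.45e-12), and rose by 1.93 under rimonabant. The Rag GTPases RRAGC and RRAGD rose by 2.42 and 1.39 under TXX-1-10 and by 1.02 and 0.84 under rimonabant. FLCN, which acts on these GTPases, rose by 1.08 under TXX-1-10 and 0.43 under rimonabant.

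Of 14 regulators of the amino acid and related stress responses, 10 rose and 2 fell under TXX-1-10 and 8 rose and 2 fell under rimonabant, with medians of 0.77 and 0.47. In the 9-library fit these were 7 risen and 2 fallen of 10 under TXX-1-10, beside 30.5% and 43.8% of all genes, and 5 and 2 under rimonabant, beside 23.7% and 25.2%. The other 4 were in the 8-library fit, where 3 rose and 0 fell under each compound. Of all genes in that fit 34.7% rose and 40.6% fell under TXX-1-10, and 23.7% and 22.8% under rimonabant. EIF2AK4 (GCN2) fell under both, by 0.40 on the log2 scale under TXX-1-10 (edgeR adjusted p = 8.78e-05) and 0.33 under rimonabant (edgeR adjusted p = 0.000862), EIF2AK1, another kinase of eIF2, fell under TXX-1-10 (-0.30) and MYC under rimonabant (-0.20), all named after their values were seen. DDIT3 (CHOP), a transcription factor downstream of ATF4, went from 11.1 ± 0.291 FPKM to 125 ± 17 under TXX-1-10 (SD, n = 3), a log2 fold change of 3.49 (edgeR adjusted p = 2.86e-11), and rose by 0.97 under rimonabant (edgeR adjusted p = 4.47e-05). TRIB3, a pseudokinase induced by ATF4 and DDIT3, rose by 3.48 and 1.28, ATF3 by 1.92 and 1.23, and PPP1R15A, which brings the phosphatase to the translation factor eIF2, by 1.63 and 1.15 under TXX-1-10 and rimonabant. ATF4, named here after its values were seen, was at 112 ± 2.82 FPKM in the vehicle libraries, 168 ± 14.7 with rimonabant and 172 ± 18.8 with TXX-1-10 (SD, n = 3). It rose by 0.62 under TXX-1-10 (edgeR adjusted p = 7.67e-05) and 0.58 under rimonabant (edgeR adjusted p = 0.000376), and the compounds' difference of 0.03 did not pass (SE 0.08, edgeR adjusted p = 0.741).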

How the data were processed

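Total RNA of vehicle-, rimonabant- or TXX-1-10-treated cells was oligo(dT) selected by the authors, and libraries were made with a NEBNext Ultra kit. The submitters' processing notes name HISAT2 2.0.5 and featureCounts 1.5.0-p3. The deposited lists hold whole-number counts per gene without normalization, and beside them FPKM values that the authors made from count, gene length and a library total. That total, recovered from the 3 columns, was used as library size. All 10 genes have the coordinates of GENCODE release 29. The last line of each list is cut off and was left out.

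Counts were fitted with edgeR 4.0.16 (R 4.3.3) over all groups, for genes with a mean FPKM of at least 1 listed in 9 libraries (4236 genes), in 8 without rimonabant replicate 1 (9369) or in 7 also without vehicle replicate 2 (11200). All 10 genes were named, with up to 4 genes per list that passed the study threshold under TXX-1-10 and the 5 genes most like SLC7A11 and SLC7A5. The members and lists were chosen with earlier results of these data known. Alternatives used limma 3.58.1 on log2(FPKM + 1) or log2(FPKM + 0.1), DESeq2 1.42.0, TMM, a correction for the trend of counts on gene length, other filters and libraries left out. Whether same-numbered libraries deviated together was checked.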

Additional observations from a re-analysis of the deposited data

How the results depend on the processing

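Of 30 fold changes of the transporters, 19 kept direction and side of an adjusted p of 0.05 in every alternative run (23, or 22 for SLC1A4, SLC6A9 and SLC43A1), among them all those of SLC3A2 and SLC7A11. By the study threshold, SLC3A2 between the compounds fell short without TXX-1-10 replicate 3 (0.99), SLC7A11 under rimonabant (0.94) and SLC6A9 between the compounds (0.81) with limma on log2(FPKM + 1), and SLC6A9 under rimonabant passed it without vehicle replicate 3 (1.05). Under the sum of shared counts as library size, 57.0% of all called genes were higher under TXX-1-10, 64.7% under rimonabant and 52.4% between the compounds, against 41.1%, 48.4% and 39.0% as reported, and the median gene under TXX-1-10 moved from -0.09 to 0.08. With TMM the share between the compounds was 50.6%, and the median gene under TXX-1-10 was at 0.0038. A minimum of 5 FPKM, which removes SLC1A4, SLC6A9 and SLC43A1, left 2 genes past the study threshold under TXX-1-10, 1 under rimonabant and 1 between the compounds, with 1 lower between them. With limma on log2(FPKM + 1), 1 gene passed it under rimonabant and 1 between the compounds, since the pseudocount shrinks scarce genes. With shared counts, 0 genes fell under rimonabant. Between the compounds, 1 gene was lower in place of 2 under TMM, DESeq2 size factors, shared counts and DESeq2, where SLC7A1 did not pass. With each library left out, the log2 fold change between the compounds ranged from -0.28 to -0.17 for SLC7A1 and from -0.49 to -0.38 for SLC1A4. The vehicle heavy chain ratio was 0.408 with all listed light chains and 0.440 with SLC7A5 and SLC7A11 alone.

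SLC7A1 under TXX-1-10 turned from -0.03 to 0.073 with TMM, 0.075 with DESeq2 size factors and with DESeq2, 0.15 with shared counts, 0.033 without rimonabant replicate 1 and TXX-1-10 replicate 3, 0.042 with length correction and 0.041 with that and the replicate block. SLC43A1 under rimonabant turned from -0.04 to 0.032 with shared counts, 0.055 with the replicate block and 0.067 with that and length correction. With each library left out, SLC7A1 under TXX-1-10 ranged from -0.057 to 0.033, SLC7A5 under TXX-1-10 from -0.012 to 0.039, SLC43A1 under rimonabant from -0.19 to 0.10 and SLC38A1 under rimonabant from -0.054 to 0.098. None of these values passed a test.

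Deviations of same-numbered libraries correlated at -0.09 to 0.03 between TXX-1-10 and vehicle and -0.06 to 0.04 between rimonabant and vehicle. Between the compounds the values were -0.79, 0.80 and -0.59 for replicates 1, 2 and 3. Spearman's rho of the deviation with gene length was -0.69, 0.67 and 0.48 in the rimonabant replicates and 0.59, 0.65 and -0.69 in the TXX-1-10 replicates. With such length trends, the check cannot tell whether the replicate numbers pair the libraries. With the numbers as a block, the rise of SLC7A1 under rimonabant (0.20) did not pass (edgeR adjusted p = 0.0540), and no other call changed. Genes with few reads are absent from the shorter lists, which limits SLC1A4, SLC6A9 and SLC43A1 to 7 or 8 libraries.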
